A study of Mus musculus with 27 samples.

Results

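Stimulated CD8+ T cells that lack Raptor were compared with stimulated wild-type CD8+ T cells, all genes considered. The comparison takes 6 of the 27 libraries of the series: the 3 labelled as Raptor-deficient stimulated CD8+ cells (Raptor KO) and the 3 labelled as wild-type stimulated CD8+ cells (WT). The other 21 libraries, in 7 groups of 3, entered the same model fit so that all groups shared an estimate of the spread. RNA was counted by gene after sequencing of total RNA.

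WT cells came from mice labelled B6-wt. Raptor KO cells came from mice labelled B6-Tg(Cd4-cre)1Cwi-Rptortm1.1Dmsa, in which a Cre recombinase driven by Cd4 sequences deletes a loxP-flanked part of Rptor. That transgene is active from the thymic stage at which cells carry both CD4 and CD8, so CD8+ cells are deleted as well, before they leave the thymus. The labels give the WT mice no Cre transgene, so effects of the transgene and of the deletion cannot be told apart. Both groups were CD8+ cells from pooled lymph node and spleen, enriched by magnetic negative selection and cultured for 48 h on plate-bound antibodies to CD3 (145-2C.11) and CD28 (37.51) at 10 µg/ml. Cells negative for MFG-E8, which binds dying cells, and for the dead-cell dye 7-AAD were then sorted. The labels give no ages. The number of mice behind a library is not stated, nor whether the 3 libraries of a group came from separate animals. The p-values therefore measure the spread between these samples, which may be technical. Other groups used for single comparisons were CD4+ cells treated in the same way, CD8+ cells kept for 48 h in 5 ng/ml IL-7 (resting), and stimulated CD8+ cells labelled B6-Tg(Cd4-cre)1Cwi-Rictortm1.1Klg (Rictor KO), which lack the defining subunit of mTORC2, the other mTOR complex.

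Raptor, the product of Rptor, is the substrate-binding subunit of mTORC1, the form of the kinase mTOR that responds to amino acids and growth signals. mTORC1 phosphorylates 4E-BP proteins and S6 kinases, which raises protein synthesis, and it acts on the transcription regulators ATF4, HIF1 and SREBP, which control genes of amino acid supply, glycolysis and lipid synthesis. In CD8+ T cells, antigen receptor and CD28 signals activate mTORC1 during the growth phase that precedes division.

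The 6 libraries held 11449525 to 14964503 counts. The ribosomal RNA precursor Rn45s took 83.9% to 87.3% of them and was left out, which left 1522199 to 2263964 counts. Protein-coding genes took 52.9%, 49.9% and 62.5% of these in WT libraries 1 to 3 and 31.8%, 47.2% and 47.8% in Raptor KO libraries 1 to 3. Raptor KO library 1 stands apart, with 487573 protein-coding counts, and the counts of genes are given with and without it. Mitochondrial ribosomal RNA took 10.1%, 10.0% and 7.2% in WT and 10.8%, 14.1% and 15.7% in Raptor KO. T cell markers summed to 321 to 350.1 CPM in WT and 295 to 358 CPM in Raptor KO, where CPM is counts per 1000000 counts of a TMM-scaled library. The 2 CD8 markers summed to 189.8 to 213.2 CPM in WT and 136 to 179 CPM in Raptor KO. Neutrophil markers (3 genes) were at 0 in all 6 libraries. Natural killer markers were at 0 in WT and at most 0.784 CPM in Raptor KO, and dendritic cell markers at most 1.58 CPM in either group, with 2 genes of each list at 0 throughout. B cell markers summed to 0.788 to 2.83 CPM in WT and 1.96 to 6.80 CPM in Raptor KO, erythroid markers to 0.283 to 1.07 and 1.96 to 5.23 CPM, and gamma-delta T cell markers to 3.11 to 4.82 and 3.35 to 10.2 CPM. The CD4 lineage pair Cd4 and Zbtb7b summed to 3.96 to 16.6 CPM in WT and 1.57 to 6.70 CPM in Raptor KO, regulatory T cell markers to 14.7 to 21.4 and 18.0 to 33.5 CPM, and stromal and endothelial markers to 7.07 to 8.67 and 5.86 to 7.45 CPM. The 9 myeloid markers summed to 39.0 to 52.6 CPM in WT and 58.0 to 70.3 CPM in Raptor KO, most of it Ctss and Cd74, which lymphocytes can also express, with 2 of the 9 at 0 in all 6 libraries. Among them H2-Aa, an MHC class II gene of antigen-presenting cells, was at 0.394, 1.61 and 1.41 CPM in WT libraries 1 to 3 and 5.02, 9.93 and 0.784 CPM in Raptor KO libraries 1 to 3. The part of these markers in the results was not tested. In sorted bulk samples, fewer cells with a transcript and less of it per cell cannot be told apart.

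Rptor itself (chromosome 11, 119602905 to 119899576 on GRCm38) was at 22.6, 17.3 and 19.6 CPM in Raptor KO libraries 1 to 3 and at 23.3, 28.9 and 18.4 CPM in WT libraries 1 to 3. These ranges overlap, and the log2 difference, Raptor KO minus WT, was -0.23 ± 0.21 (SE; adjusted p = 0.51 in edgeR's quasi-likelihood test with Benjamini-Hochberg adjustment, as for all adjusted p-values below). The allele removes part of the gene, so a count over the whole gene does not check the deletion, and the groups are called as they are labelled. Mtor, the kinase, was at 40.2, 42.3 and 48.6 CPM in the Raptor KO libraries and 51.2, 56.2 and 53.5 CPM in the WT libraries, lower in each Raptor KO library than in any WT library, and did not pass the threshold (-0.28 ± 0.15, adjusted p = 0.225). Cd8a had values of 109.7, 112 and 91.7 CPM in the Raptor KO libraries and 128, 110.3 and 117 CPM in the WT libraries. Cd8b1 was at 56.1, 67.4 and 44.7 CPM in the Raptor KO libraries and 84.7, 80.8 and 73.0 CPM in the WT libraries. Cd8a overlapped between the groups, Cd8b1 did not, and neither passed (-0.19 ± 0.16 and -0.51 ± 0.19). Cd8b1 was close to the threshold (adjusted p = 0.0833) and passed in 5 of 15 alternatives, with 0.0376 with only the 6 libraries in the fit, 0.0292 with a replicate block, 0.0162 without a filter on low counts, 0.049 with median-ratio size factors and 0.0419 without Raptor KO library 2. Cd4 stayed at or below 5.02 CPM in all 6 libraries, the highest being Raptor KO library 1, with 1.64 ± 0.93 (adjusted p = 0.234).

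Of 10493 genes tested, 1230 (11.7%) passed an adjusted p of 0.05. Of these, 661 (6.3% of the genes tested) rose in Raptor KO cells and 569 (5.42%) fell. A log2 difference over 1 in size was reached by 312 of the genes that rose and 217 of those that fell. In 617 of the genes that rose and 548 of those that fell, the 3 Raptor KO libraries did not overlap the 3 WT libraries. Over all genes tested, 15.5% were higher without overlap and 14.3% lower without overlap, whether or not they passed. Leaving out Raptor KO library 1 gave 550 higher and 440 lower, with 509 and 404 genes shared with the full comparison. The lowest counts came without Raptor KO library 3 (409 higher and 344 lower) and without WT library 3 (420 and 409). Without WT library 1 there were 429 and 407.

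All log2 differences are relative to the bulk of the tested genes, whose median was 0.03. When libraries were scaled by totals that include Rn45s, this median fell by 0.52 on the log2 scale, and 55 genes then passed as higher and 404 as lower. Directions below are relative to the other genes of these cells. Of the named genes that passed, 54 of 71 that rose and 4 of 75 that fell lost their call under that scaling.

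Genes of amino acid supply and of the ATF4 response were among the largest falls. Of 17 tested enzymes of amino acid and one-carbon synthesis, 14 fell and none rose, with a median log2 difference of -1.54. Of 12 amino acid transporters, 7 fell and none rose (median -0.70). Of 20 cytosolic tRNA synthetases, which charge tRNAs with amino acids, 15 fell and none rose (median -1.01). Of 12 regulators and effectors of the ATF4 stress response, 7 fell and none rose (median -1.52). ATF4 is a transcription activator that with C/EBP partners binds a composite element in many of these genes. These lists, like all lists here, were chosen with earlier results of these data known, so their direction is not independent evidence. The counts of every list stand beside 6.3% of all tested genes that rose and 5.42% that fell.

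To show what the fallen genes carry upstream, RefSeq promoter windows (GRCm38.p6, 250 bases before to 50 after an annotated start) were searched on both strands for TGATGNAA, the core of that composite element. It was present in 3.97% of all 32851 windows and, by gene, in 4.51% of all 27025 genes with a window. By gene, it was in the window of 24 of 452 genes that fell (5.31%), of 10 of 437 genes that rose (2.29%) and of 2.7% of the tested genes with a window. In the lists it was in the windows of 5 of 12 tRNA synthetases, 4 of 12 ATF4-related genes, 3 of 15 synthesis enzymes and 2 of 8 transporters. The 250 bases before the start are printed for 4 genes, 5′ to 3′ on the gene's strand. Asns, Chac1 and Aars come from these lists, and Pck2 is in none of them. All 4 hold a match there, so that its place and surroundings can be compared. Capitals mark the match, which begins 23 bases before the start in Asns, 193 in Chac1, 103 in Pck2 and 112 in Aars. In Asns it lies on the gene's strand and in the other 3 on the opposite strand. A match describes the letters and does not show a bound site.
Asns (chr6:7693210-7693459, minus strand): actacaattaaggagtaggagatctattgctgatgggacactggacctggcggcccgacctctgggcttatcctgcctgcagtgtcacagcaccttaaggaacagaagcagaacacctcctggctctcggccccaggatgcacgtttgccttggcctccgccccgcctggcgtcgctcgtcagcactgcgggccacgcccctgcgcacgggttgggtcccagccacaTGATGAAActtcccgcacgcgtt
Chac1 (chr2:119350992-119351241, plus strand): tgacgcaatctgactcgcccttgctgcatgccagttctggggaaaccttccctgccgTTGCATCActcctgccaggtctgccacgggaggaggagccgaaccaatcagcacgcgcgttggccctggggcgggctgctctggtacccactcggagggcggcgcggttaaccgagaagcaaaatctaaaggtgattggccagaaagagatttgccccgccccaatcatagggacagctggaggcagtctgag
Pck2 (chr14:55540016-55540265, plus strand): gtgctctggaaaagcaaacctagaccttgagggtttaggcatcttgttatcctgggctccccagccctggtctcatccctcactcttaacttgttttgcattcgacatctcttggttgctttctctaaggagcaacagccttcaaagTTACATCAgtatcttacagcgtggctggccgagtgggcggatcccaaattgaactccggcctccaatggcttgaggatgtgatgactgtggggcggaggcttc
Aars (chr8:111033592-111033841, plus strand): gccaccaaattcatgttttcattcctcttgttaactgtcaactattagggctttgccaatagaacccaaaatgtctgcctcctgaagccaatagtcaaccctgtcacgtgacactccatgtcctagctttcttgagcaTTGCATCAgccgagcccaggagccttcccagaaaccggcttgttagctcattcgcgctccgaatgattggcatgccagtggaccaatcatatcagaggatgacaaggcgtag

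Asns, which makes asparagine (chromosome 6, 7675169 to 7693254), was at 5.02, 2.61 and 4.70 CPM in the Raptor KO libraries and 132, 164 and 121 CPM in the WT libraries, numbered 1 to 3 in each group here and below. Every Raptor KO library lay more than an order of magnitude below every WT library (-5.07 ± 0.37, adjusted p = 3.48e-13). Gpt2, a mitochondrial alanine aminotransferase, was at 0, 1.05 and 1.57 CPM in the Raptor KO libraries and 38.6, 55.7 and 40.4 CPM in the WT libraries (-5.32 ± 0.65, adjusted p = 1.82e-12). Cth, which makes cysteine from cystathionine, had 0.837, 6.80 and 9.80 CPM in the Raptor KO libraries and 55.2, 60.0 and 60.8 CPM in the WT libraries. Raptor KO library 1 was the lowest of the 6 for Cth and the groups were far apart (-3.12 ± 0.42, adjusted p = 3.65e-05). Psph, the last enzyme of serine synthesis, was at 10.9, 11.0 and 8.23 CPM in the Raptor KO libraries and 40.2, 46.6 and 68.4 CPM in the WT libraries (-2.41 ± 0.23, adjusted p = 3.17e-11). Psat1, the step before it, had a higher level and a smaller difference, with 96.3, 111 and 110.2 CPM in the Raptor KO libraries and 232, 234 and 303 CPM in the WT libraries (-1.27 ± 0.15, adjusted p = 6.17e-08). Aldh18a1, the first enzyme of proline synthesis, was at 34.3, 43.4 and 32.5 CPM in the Raptor KO libraries and 121, 145 and 116 CPM in the WT libraries (-1.79 ± 0.16, adjusted p = 3.82e-11). In none of these 6 genes did the groups overlap. Phgdh and Pycr1, named after their values were seen, also fell (-1.85 ± 0.21 and -2.55 ± 0.63).

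Among transporters, Slc7a3, a carrier of cationic amino acids, was close to 0 in the Raptor KO libraries, with 0.837, 0 and 1.18 CPM in the Raptor KO libraries and 41.8, 45.0 and 37.1 CPM in the WT libraries (-5.74 ± 0.67, adjusted p = 4.36e-14). Slc1a4, a carrier of small neutral amino acids, was at 3.35, 3.66 and 3.92 CPM in the Raptor KO libraries and 28.8, 27.8 and 23.5 CPM in the WT libraries (-2.82 ± 0.38, adjusted p = 1.57e-07). Slc7a5, the light chain of the large neutral amino acid carrier, remained abundant and was at 103, 124 and 101 CPM in the Raptor KO libraries and 493, 509 and 468 CPM in the WT libraries (-2.16 ± 0.24, adjusted p = 3.97e-06). Its heavy chain partner Slc3a2 was at 97.1, 88.3 and 94.5 CPM in the Raptor KO libraries and 181, 211 and 158 CPM in the WT libraries, a smaller difference (-0.97 ± 0.14, adjusted p = 2.54e-06). Slc7a11, the cystine carrier, fell too and was named after its values were seen (-3.35 ± 0.99, adjusted p = 0.00236).

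Atf4 was the most abundant ATF4-related gene described, at 167, 169 and 143 CPM in the Raptor KO libraries and 382, 356 and 367 CPM in the WT libraries, and all Raptor KO libraries were below all WT libraries (-1.21 ± 0.16, adjusted p = 1.09e-06). Its effectors had larger log2 differences. Trib3, a pseudokinase that restrains ATF4, was at 1.67, 2.09 and 1.18 CPM in the Raptor KO libraries and 21.7, 36.4 and 19.2 CPM in the WT libraries (-3.93 ± 0.53, adjusted p = 4.27e-09). Chac1, which degrades glutathione, was at 2.51, 3.14 and 0.784 CPM in the Raptor KO libraries and 31.1, 25.7 and 20.9 CPM in the WT libraries (-3.67 ± 0.48, adjusted p = 2.02e-08). In both of these the WT libraries were at least 5 times as high as any Raptor KO library. Sesn2, a leucine sensor that inhibits mTORC1 when leucine is low, was at 6.70, 8.89 and 2.74 CPM in the Raptor KO libraries and 43.0, 46.0 and 31.7 CPM in the WT libraries (-2.77 ± 0.33, adjusted p = 7.32e-09). Pck2, which makes phosphoenolpyruvate in mitochondria, was at 4.19, 7.84 and 7.45 CPM in the Raptor KO libraries and 67.8, 77.6 and 61.4 CPM in the WT libraries (-3.31 ± 0.27, adjusted p = 1.24e-13). The groups did not overlap in any of these 5 genes. Ddit4, an mTORC1 inhibitor induced by stress, varied within both groups, with 33.5, 18.8 and 5.88 CPM in the Raptor KO libraries and 109, 155 and 63.6 CPM in the WT libraries (-2.64 ± 0.44, adjusted p = 3.93e-04). With only the 6 libraries in the fit, its adjusted p was 0.098. Atf5 and Vldlr, named after their values were seen, completed the 7 of the list that fell (-1.46 and -4.91); Pck2 is in none of the lists. Atf5 lost its call without Raptor KO library 3 or WT library 2, with an adjusted p of up to 0.113.

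Of the tRNA synthetases, Yars (tyrosine) was at 30.1, 35.0 and 29.8 CPM in the Raptor KO libraries and 119, 122 and 119 CPM in the WT libraries (-1.92 ± 0.15, adjusted p = 1.82e-12). Aars (alanine) was at 56.1, 52.3 and 41.2 CPM in the Raptor KO libraries and 154, 191 and 177 CPM in the WT libraries (-1.82 ± 0.15, adjusted p = 5.01e-12). Nars (asparagine) was at 63.6, 68.0 and 55.7 CPM in the Raptor KO libraries and 223, 214 and 222 CPM in the WT libraries (-1.82 ± 0.15, adjusted p = 1.97e-11). Within each group these 3 genes varied little, and the Raptor KO values were all below the WT values.

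**Figure D1:**
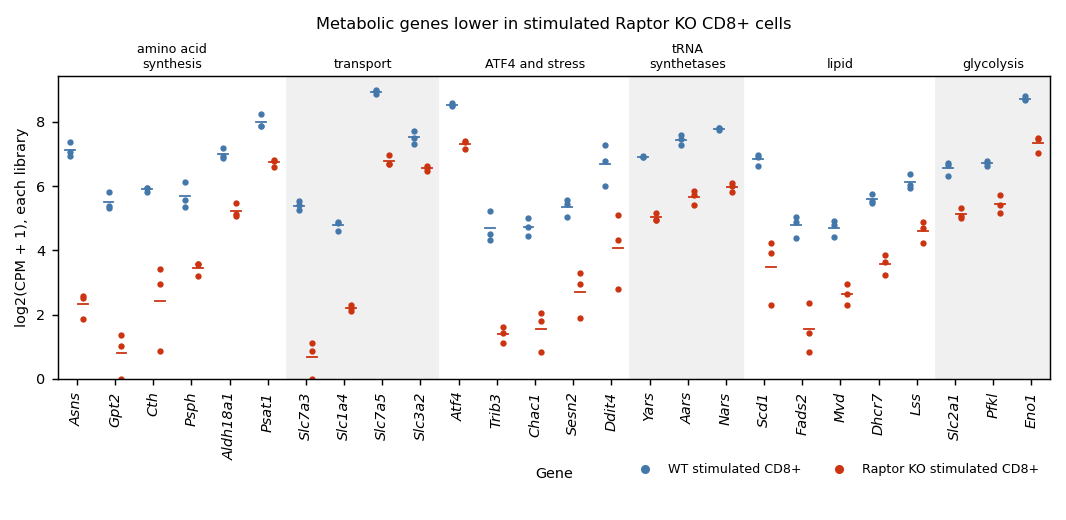
Level of 26 metabolic genes in each of the 6 libraries, as log2(CPM + 1) on a linear axis; blue points are the 3 WT and red points the 3 Raptor KO stimulated CD8+ libraries, and short lines are group means. For every gene drawn the red points lie below the blue points, from Asns (5.02 CPM at most in Raptor KO and 121 CPM at least in WT) to Psat1.

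Genes of lipid synthesis fell as well. Of 27 tested genes of cholesterol synthesis and uptake, 19 fell and none rose (median -0.91), against 5.42% of all tested genes that fell. Of 15 genes of fatty acid synthesis and desaturation, 11 fell and none rose (median -0.90). Scd1, the desaturase that makes oleate, was at 17.6, 14.1 and 3.92 CPM in the Raptor KO libraries and 120.2, 125 and 98.7 CPM in the WT libraries (-3.41 ± 0.38, adjusted p = 9.51e-07), and Raptor KO library 3 was the lowest. Fads2, the first desaturase for polyunsaturated fatty acids, was at 1.67, 4.18 and 0.784 CPM in the Raptor KO libraries and 28.8, 32.1 and 20.1 CPM in the WT libraries (-3.60 ± 0.47, adjusted p = 3.68e-08). Mvd, the mevalonate pathway decarboxylase, was at 6.70, 5.23 and 3.92 CPM in the Raptor KO libraries and 29.2, 26.8 and 20.4 CPM in the WT libraries (-2.31 ± 0.38, adjusted p = 7.37e-06). The groups were separate in all 3. Dhcr7, the last step to cholesterol, was at 8.37, 13.6 and 11.4 CPM in the Raptor KO libraries and 53.2, 45.5 and 43.8 CPM in the WT libraries (-2.05 ± 0.23, adjusted p = 4.69e-09). Lss, which closes the sterol ring, was at 25.1, 28.2 and 17.6 CPM in the Raptor KO libraries and 82.0, 64.8 and 61.1 CPM in the WT libraries (-1.57 ± 0.19, adjusted p = 3.65e-08). Hmgcs1, an early mevalonate enzyme, was at 61.1, 81.0 and 66.6 CPM in the Raptor KO libraries and 148, 120.4 and 125 CPM in the WT libraries (-0.91 ± 0.14, adjusted p = 9.37e-06). Each Raptor KO library was below each WT library in these 3 as well. Srebf1, the SREBP1 gene, was at 31.8, 52.3 and 31.0 CPM in the Raptor KO libraries and 78.4, 64.2 and 72.1 CPM in the WT libraries (-0.90 ± 0.17, adjusted p = 2.62e-04). Scd2, a second desaturase, changed by -2.48 ± 0.29. Of 19 cholesterol genes with a promoter window, 1 (Hmgcs1) held the sterol element TCACNCCAC, which was in the windows of 1.44% of all 27025 genes with one. It was in the windows of 2.21% of genes that fell and 1.83% of genes that rose.

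In glycolysis, 15 of 21 tested genes fell and none rose (median -1.16). Slc2a1, the glucose carrier GLUT1, was at 31.0, 39.2 and 32.5 CPM in the Raptor KO libraries and 98.9, 103 and 78.1 CPM in the WT libraries (-1.43 ± 0.17, adjusted p = 7.30e-08). Pfkl, a phosphofructokinase subunit, was at 51.9, 41.8 and 34.5 CPM in the Raptor KO libraries and 108, 104 and 98.7 CPM in the WT libraries (-1.30 ± 0.15, adjusted p = 2.02e-08). Eno1, an enolase, was at 180.0, 176 and 131 CPM in the Raptor KO libraries and 442, 417 and 407 CPM in the WT libraries (-1.38 ± 0.14, adjusted p = 1.87e-09). All WT libraries were above all Raptor KO libraries for these 3 genes. Gapdh fell by a similar amount (-1.20 ± 0.14); it has many pseudogenes that can take or lose its reads. Slc16a3, the lactate exporter MCT4, changed by -2.45 ± 0.36, and Ldha and Pgk1 by -1.16 ± 0.14 and -1.18 ± 0.16, all 3 named after their values were seen. Of 14 hypoxia response genes, 9 fell and none rose (median -1.06). Vegfa, the endothelial growth factor, was at 3.35, 1.57 and 3.14 CPM in the Raptor KO libraries and 26.8, 27.8 and 19.2 CPM in the WT libraries (-3.17 ± 0.46, adjusted p = 2.81e-07). Egln3, an oxygen sensor induced by HIF1, spread widely, with 11.7, 15.2 and 1.96 CPM in the Raptor KO libraries and 53.6, 82.4 and 34.2 CPM in the WT libraries (-2.65 ± 0.50, adjusted p = 7.67e-04), and had an adjusted p of 0.0988 with only the 6 libraries in the fit. Bnip3, a mitophagy receptor named after its values were seen, changed by -3.33 ± 1.04, with an adjusted p of 0.0626 without Raptor KO library 3.

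Mitochondrial and nucleotide genes moved less. Of 32 genes of the TCA cycle and of pyruvate and glutamine use, 10 fell (median -0.44). Dld, a shared subunit of the 2-oxoacid dehydrogenases, was at 31.0, 30.8 and 27.4 CPM in the Raptor KO libraries and 68.6, 47.6 and 69.9 CPM in the WT libraries (-1.08 ± 0.18, adjusted p = 4.25e-05). Gls2, a glutaminase, fell (-1.96 ± 0.49, adjusted p = 0.00296). The count of TCA genes that fell was 5 without Raptor KO library 1, 6 without Raptor KO library 3 and 5 without WT library 3. Of 9 pentose phosphate genes, 5 fell, G6pdx among them (-0.85 ± 0.20, adjusted p = 0.097 without WT library 3). That count was 1 without Raptor KO library 3, 2 without WT library 1 and 1 without WT library 3. Of 22 nucleotide synthesis genes, 4 fell, including Cad, which starts pyrimidine synthesis (-0.54 ± 0.13, adjusted p = 0.00556), and Dhodh, its mitochondrial step (-1.23 ± 0.32, adjusted p = 0.0058). Without WT library 3 it was 2. Of 70 nuclear-encoded respiratory chain genes, 9 fell and 1 rose, and 5, 4 and 5 fell without Raptor KO library 1, Raptor KO library 3 and WT library 3. Uqcrq, a complex III subunit, was at 15.1, 15.7 and 24.7 CPM in the Raptor KO libraries and 41.0, 40.7 and 47.2 CPM in the WT libraries (-1.17 ± 0.24, adjusted p = 5.55e-04). Of 8 protein genes of the mitochondrial genome, 1 rose (4 with only the 6 libraries in the fit), mt-Cytb at 1758, 2340.3 and 2000.2 CPM in the Raptor KO libraries and 1026, 1478 and 699 CPM in the WT libraries (0.93 ± 0.26, adjusted p = 0.0209). Its call was lost without Raptor KO library 2 or 3 or WT library 1 or 3 (adjusted p up to 0.122), and it moved beside the share of mitochondrial ribosomal RNA given above, whose part was not tested.

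Genes of protein synthesis split by class. The 79 cytosolic ribosomal protein genes had 12 members that rose and none that fell, with a median of 0.31 that became -0.19 when totals included Rn45s. Rps15a was at 331, 342 and 452 CPM in the Raptor KO libraries and 203, 244 and 229 CPM in the WT libraries (0.74 ± 0.15, adjusted p = 4.39e-04). Rpl32 was at 477, 504 and 538 CPM in the Raptor KO libraries and 288, 345 and 374 CPM in the WT libraries (0.59 ± 0.15, adjusted p = 0.0052). Both were separate between groups, and ribosomal protein genes have near-identical pseudogenes that can share their reads. Rpl32 lost its call without WT library 1 (adjusted p = 0.0612), and the list's count was 3 without that library and 4 without Raptor KO library 3. Eef1a1, the elongation factor that delivers charged tRNA, was at 3178, 3051 and 3617 CPM in the Raptor KO libraries and 1721, 2112 and 1994 CPM in the WT libraries (0.76 ± 0.18, adjusted p = 0.00437), with an adjusted p of 0.0507 when only the 6 libraries were fitted. Of 18 translation factors it was the 1 that rose, and 2 fell. Eif3c, an initiation factor subunit, was at 189, 225 and 204 CPM in the Raptor KO libraries and 342, 365 and 381 CPM in the WT libraries (-0.82 ± 0.12, adjusted p = 8.44e-06). Eif2s2, part of the factor that brings the initiator tRNA, was at 26.8, 38.2 and 58.0 CPM in the Raptor KO libraries and 85.9, 71.2 and 81.5 CPM in the WT libraries (-0.90 ± 0.18, adjusted p = 3.20e-04). Of 40 nucleolar genes of ribosome biogenesis 6 fell and none rose, with 3 without Raptor KO library 3, 12 without WT library 2 and 2 without WT library 3. Eif4ebp1, the 4E-BP1 substrate of mTORC1, was at 8.37, 10.5 and 4.70 CPM in the Raptor KO libraries and 47.3, 57.8 and 45.3 CPM in the WT libraries and was lower in every Raptor KO library (-2.71 ± 0.29, adjusted p = 9.69e-10). It was the 1 gene that fell of 18 in the list of mTORC1 subunits and regulators. Sesn2 and Ddit4, described above as inhibitors of mTORC1, also fell and were counted in the ATF4 list. In the mTORC1 list 2 rose. Rragd, a Rag GTPase that recruits mTORC1 to lysosomes, was at 10.0, 6.27 and 11.8 CPM in the Raptor KO libraries and 1.97, 3.21 and 3.96 CPM in the WT libraries (1.58 ± 0.43, adjusted p = 0.00803). Tsc1, of the complex that restrains mTORC1, was at 27.6, 23.0 and 28.2 CPM in the Raptor KO libraries and 18.5, 17.7 and 14.7 CPM in the WT libraries (0.64 ± 0.21, adjusted p = 0.0369). Both depended on single libraries: Rragd lost its call without Raptor KO library 3 or WT library 1 (adjusted p up to 0.102), and Tsc1 without any library except Raptor KO library 2 (up to 0.191).

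Of 11 genes of the MYC and MAX network, Mxd1, a MAX partner that opposes MYC, rose, with 42.7, 45.0 and 22.7 CPM in the Raptor KO libraries and 7.09, 17.7 and 7.92 CPM in the WT libraries (1.80 ± 0.35, adjusted p = 0.00101), and 1 other fell. Myc was higher in each Raptor KO library, at 406, 418 and 428 CPM in the Raptor KO libraries and 275, 262 and 303 CPM in the WT libraries, and did not pass (0.57 ± 0.27, adjusted p = 0.18).

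Protein quality control genes fell in part. Of 37 proteasome subunits 14 fell and none rose. Psmd1 was at 53.6, 64.3 and 57.2 CPM in the Raptor KO libraries and 86.3, 81.9 and 111 CPM in the WT libraries (-0.68 ± 0.16, adjusted p = 0.00253). The count was 4 without Raptor KO library 1, 8 without Raptor KO library 3, 9 without WT library 1 and 2 without WT library 3. Of 15 heat shock and cytosolic chaperone genes 6 fell, including Hspa9, the mitochondrial HSP70 (-0.85 ± 0.16, adjusted p = 1.82e-04), and 3 without WT library 3. Of 22 genes of the endoplasmic reticulum and unfolded protein response, 5 fell, including Herpud1 (-1.04 ± 0.17, adjusted p = 2.61e-05) and Hyou1 (-0.65 ± 0.13, adjusted p = 6.94e-04). Without Raptor KO library 2 or 3 or WT library 3 the count was 3. Dnajb9, a chaperone of that compartment, rose (1.37 ± 0.35, adjusted p = 0.00608), and lost its call without WT library 1 (adjusted p = 0.0633). Of 31 lysosome and autophagy genes 2 rose (6.45%, near the 6.3% of all tested genes) and 4 fell (12.9%, against 5.42%). Without Raptor KO library 3 or WT library 3, 1 fell. Npc2, which carries cholesterol out of lysosomes, was at 172, 188 and 137 CPM in the Raptor KO libraries and 56.8, 81.4 and 80.0 CPM in the WT libraries (1.19 ± 0.15, adjusted p = 1.74e-07). Fnip1, a folliculin partner that acts on the Rag GTPases, was at 80.4, 92.0 and 71.4 CPM in the Raptor KO libraries and 51.2, 56.7 and 26.0 CPM in the WT libraries (0.89 ± 0.20, adjusted p = 0.00219), with an adjusted p of 0.0801 when only the 6 libraries were fitted.

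Cell cycle genes were mostly not past the threshold. Of 31 DNA replication genes 1 fell (Mcm4, -0.55 ± 0.15) and none rose. Of 29 mitosis and G2/M genes 2 fell (Hmmr, -0.81 ± 0.20, and Cdc25c, -1.86 ± 0.59) and none rose. The shares that fell, 3.23% for replication and 6.9% for mitosis, were near the 5.42% of all tested genes. Mcm2, a helicase subunit, was at 125, 139 and 124 CPM in the Raptor KO libraries and 130.1, 147 and 132 CPM in the WT libraries, with overlap between groups (-0.07 ± 0.15, adjusted p = 0.805). Of 20 G1 genes 3 rose and 2 fell. Ccnd2, cyclin D2, was at 701, 891 and 649 CPM in the Raptor KO libraries and 425, 413 and 490.1 CPM in the WT libraries, higher in every Raptor KO library (0.75 ± 0.16, adjusted p = 0.00127), and E2f2 and E2f3 had 0.66 ± 0.22 and 0.59 ± 0.18. Ccne1, cyclin E1, had -0.61 ± 0.19. Cdkn1a, the inhibitor p21, was at 27.6, 27.7 and 7.06 CPM in the Raptor KO libraries and 101, 90.5 and 56.3 CPM in the WT libraries (-2.08 ± 0.39, adjusted p = 0.0012), with an adjusted p of 0.0958 when only the 6 libraries were fitted. Mcm4 without WT library 1, Cdc25c without Raptor KO library 2 or 3 or WT library 1 or 2, E2f2 without Raptor KO library 1 or 2 or WT library 1 or 3, E2f3 without any 1 of the 6 and Ccne1 without Raptor KO library 1 or 2 or WT library 2 or 3 lost their calls, with adjusted p-values of up to 0.05005, 0.151, 0.244, 0.0843 and 0.121.

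Of 20 p53 target genes, 8 fell and none rose (median -0.65). Zmat3, an RNA-binding p53 target, was at 15.9, 11.5 and 12.9 CPM in the Raptor KO libraries and 79.6, 55.7 and 54.3 CPM in the WT libraries (-2.26 ± 0.24, adjusted p = 9.20e-10). Ccng1, cyclin G1, was at 41.9, 35.5 and 31.0 CPM in the Raptor KO libraries and 123, 98.0 and 100.4 CPM in the WT libraries (-1.59 ± 0.17, adjusted p = 6.28e-09). Bbc3, the death-promoting BCL2 family member PUMA, was at 5.02, 4.18 and 3.53 CPM in the Raptor KO libraries and 12.6, 15.5 and 12.4 CPM in the WT libraries (-1.69 ± 0.35, adjusted p = 4.52e-04). All 3 were lower in each Raptor KO library, and without Raptor KO library 3 the list's count was 5. In the BCL2 family, 2 of 13 survival and death genes rose and Bbc3 fell. Bcl2l1, which encodes BCL-xL, was at 175, 212.8 and 192 CPM in the Raptor KO libraries and 114, 111 and 134 CPM in the WT libraries (0.69 ± 0.14, adjusted p = 5.60e-04). Mcl1, another survival member, was at 137, 138 and 151 CPM in the Raptor KO libraries and 98.9, 100.1 and 80.0 CPM in the WT libraries (0.62 ± 0.13, adjusted p = 0.00135). Neither overlapped between groups.

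**Figure D2:**
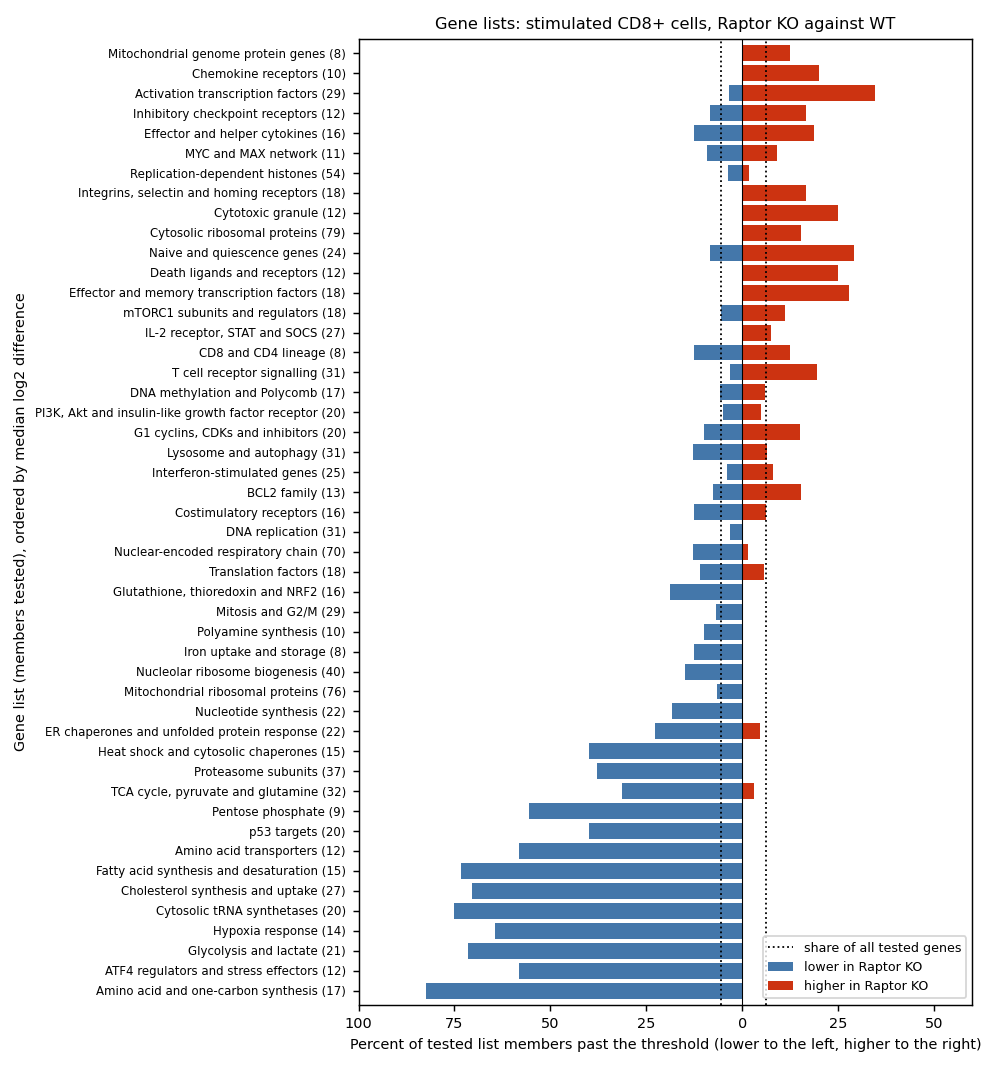
Percent of the tested members of each gene list that passed the threshold, lower in Raptor KO cells to the left (blue) and higher to the right (red), for lists with at least 8 members tested, ordered by median log2 difference. Dotted lines mark the shares of all tested genes (5.42% lower, 6.3% higher). The lists of amino acid and one-carbon synthesis, tRNA synthetases, fatty acids, glycolysis and cholesterol reach furthest to the left (82.4% to 70.4%).

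Secreted mediators were among the largest rises. Of 5 tested chemokines 4 rose, with a median log2 difference of 2.45, against 6.3% of all tested genes that rose. Ccl3 was at 172, 193 and 404 CPM in the Raptor KO libraries and 46.9, 15.0 and 74.1 CPM in the WT libraries (2.45 ± 0.51, adjusted p = 0.00671). Ccl4 was at 125, 137 and 258 CPM in the Raptor KO libraries and 35.9, 17.7 and 72.4 CPM in the WT libraries (2.00 ± 0.42, adjusted p = 0.0052). Both encode inflammatory chemokines, and Raptor KO library 3 was the highest of the 6 for each. Ccl9 was at 20.9, 30.3 and 36.9 CPM in the Raptor KO libraries and 2.36, 0 and 4.24 CPM in the WT libraries (3.54 ± 0.56, adjusted p = 1.17e-05). Xcl1, which attracts cross-presenting dendritic cells, was at 42.7, 44.4 and 184 CPM in the Raptor KO libraries and 12.2, 6.42 and 28.6 CPM in the WT libraries (2.47 ± 0.54, adjusted p = 0.00602), again highest in Raptor KO library 3. The groups did not overlap in any of the 4. With only the 6 libraries in the fit, Ccl3, Ccl4 and Xcl1 had adjusted p-values of 0.115, 0.136 and 0.194, and Ccl9 was the 1 that passed. The fifth, Ccl5, was at 1.67, 3.66 and 1.18 CPM in the Raptor KO libraries and 0, 4.82 and 1.41 CPM in the WT libraries, which overlap. Csf2, the cytokine GM-CSF, was at 60.3, 98.3 and 32.5 CPM in the Raptor KO libraries and 9.07, 3.21 and 8.48 CPM in the WT libraries (3.12 ± 0.46, adjusted p = 9.34e-05), with every Raptor KO library above every WT library. Ccr8, a receptor of T cells in tissue, was at 56.1, 59.1 and 36.5 CPM in the Raptor KO libraries and 7.88, 9.64 and 3.11 CPM in the WT libraries (2.96 ± 0.55, adjusted p = 0.00162). Of 10 chemokine receptors it and Ccr7 (0.49 ± 0.16, adjusted p = 0.0321) rose, and Ccr7, whose difference turned to -0.04 when totals included Rn45s, lost its call without Raptor KO library 1 or 2 or WT library 1 or 3 (up to 0.297).

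Of 16 tested effector and helper cytokines, 3 rose, Csf2 among them, and 2 fell. Ifng was at 188, 224 and 106 CPM in the Raptor KO libraries and 185, 128 and 75.5 CPM in the WT libraries, with overlap (0.41 ± 0.32, adjusted p = 0.468). Tnf was at 106, 81.5 and 107 CPM in the Raptor KO libraries and 50.8, 58.3 and 45.5 CPM in the WT libraries (0.94 ± 0.29, adjusted p = 0.041). Osm, oncostatin M, was at 42.7, 36.6 and 26.3 CPM in the Raptor KO libraries and 19.3, 30.0 and 14.1 CPM in the WT libraries (0.75 ± 0.26, adjusted p = 0.0498), with overlap. Both lymphotoxin genes fell. Lta was at 124, 156 and 119 CPM in the Raptor KO libraries and 196, 227 and 254 CPM in the WT libraries (-0.77 ± 0.20, adjusted p = 0.0116), and Ltb had a difference of -1.20 ± 0.39 (adjusted p = 0.0439). These 4 calls depended on single libraries. Tnf lost its call without any library except Raptor KO library 2 (adjusted p up to 0.156), Osm without Raptor KO library 1 or 2 or WT library 1 or 3 (up to 0.3), Lta without Raptor KO library 3 or WT library 3 (up to 0.0698), and Ltb without Raptor KO library 2 or 3 or WT library 2 or 3 (up to 0.21).

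Tnfsf10, the death ligand TRAIL (chromosome 3, 27317028 to 27342427), was at 43.5, 31.4 and 45.5 CPM in the Raptor KO libraries and 5.12, 5.89 and 1.98 CPM in the WT libraries, and the lowest Raptor KO library was well above the highest WT library (3.31 ± 0.32, adjusted p = 2.18e-11). Of 12 death ligands and receptors, it, Tnf and Cflar rose. Cflar, which blocks death receptor signalling, was at 93.8, 103 and 107 CPM in the Raptor KO libraries and 46.9, 56.7 and 51.8 CPM in the WT libraries (0.97 ± 0.14, adjusted p = 4.63e-06). Fasl, the FAS ligand, was at 36.0, 41.8 and 11.4 CPM in the Raptor KO libraries and 15.8, 10.7 and 7.07 CPM in the WT libraries; Raptor KO library 3 overlapped WT library 1, and it did not pass (1.39 ± 0.48, adjusted p = 0.0665). Without Raptor KO library 3 it did pass.

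Of 12 cytotoxic granule genes 3 rose, 1 without WT library 1, and Gzmb, the most abundant of those described, did not pass. Gzmb, granzyme B, was at 1390.3, 1639 and 966 CPM in the Raptor KO libraries and 1552, 1441 and 1080.4 CPM in the WT libraries, with full overlap (-0.03 ± 0.33, adjusted p = 0.971). Ctsw, a cathepsin of cytotoxic cells, was at 46.9, 42.9 and 42.3 CPM in the Raptor KO libraries and 8.67, 13.9 and 4.81 CPM in the WT libraries (2.36 ± 0.26, adjusted p = 4.69e-09), and its 3 Raptor KO libraries were close together and above all WT libraries. Nkg7, a granule membrane protein, was at 117, 118 and 167 CPM in the Raptor KO libraries and 69.0, 77.1 and 79.5 CPM in the WT libraries (0.84 ± 0.22, adjusted p = 0.0141). Eomes, a transcription factor of cytotoxic and memory cells, was at 33.5, 53.8 and 23.9 CPM in the Raptor KO libraries and 13.8, 15.0 and 21.5 CPM in the WT libraries (1.11 ± 0.31, adjusted p = 0.0129). Nkg7 lost its call without Raptor KO library 3 or WT library 1 (adjusted p up to 0.105) and Eomes without Raptor KO library 2 or WT library 1 (up to 0.201).

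Of 29 activation-induced transcription factors 10 rose and 1 fell, with a median of 0.56 that became 0.01 when totals included Rn45s. Ikzf2, the Ikaros family member Helios, was at 138, 133 and 124 CPM in the Raptor KO libraries and 35.1, 40.7 and 19.2 CPM in the WT libraries (2.09 ± 0.24, adjusted p = 7.00e-07). Egr2, which restrains T cell activation, was at 24.3, 34.0 and 37.6 CPM in the Raptor KO libraries and 12.6, 10.2 and 12.4 CPM in the WT libraries (1.46 ± 0.23, adjusted p = 1.16e-05). Rel, the NF-kappa-B subunit c-Rel, was at 312, 332 and 396 CPM in the Raptor KO libraries and 179.7, 142 and 195 CPM in the WT libraries (1.01 ± 0.14, adjusted p = 1.18e-06). Nfkbia, which encodes an NF-kappa-B inhibitor, was at 180.0, 207 and 131 CPM in the Raptor KO libraries and 67.4, 85.1 and 78.9 CPM in the WT libraries (1.16 ± 0.17, adjusted p = 1.13e-05). Each Raptor KO library was above each WT library in these 4 genes. Fosb, of the AP-1 family, was at 25.1, 23.0 and 9.80 CPM in the Raptor KO libraries and 3.55, 6.42 and 3.11 CPM in the WT libraries (2.15 ± 0.55, adjusted p = 0.00758; adjusted p = 0.0574 without WT library 3). Myb changed by 1.57 ± 0.26, and Egr1, Nr4a2 and Ikzf3, named after their values were seen, by 0.92 ± 0.18, 1.58 ± 0.31 and 1.33 ± 0.31. With only the 6 libraries in the fit, Nr4a2 lost its call (adjusted p = 0.0954). Batf3, also named so, fell (-1.61 ± 0.45, adjusted p = 0.013), and lost its call without Raptor KO library 3 (adjusted p = 0.139). Irf4, which scales with receptor signal strength, was at 299, 363 and 249 CPM in the Raptor KO libraries and 391, 359 and 335 CPM in the WT libraries, with overlap, and did not pass (-0.25 ± 0.43, adjusted p = 0.762).

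Of 18 effector and memory transcription factors 5 rose and none fell. Zeb2, a factor of terminal effectors, was at 44.4, 44.4 and 50.2 CPM in the Raptor KO libraries and 15.4, 10.7 and 18.1 CPM in the WT libraries (1.62 ± 0.28, adjusted p = 5.55e-05). Id2, an inhibitor of E proteins, was at 29.3, 36.1 and 26.3 CPM in the Raptor KO libraries and 8.28, 16.1 and 7.64 CPM in the WT libraries (1.59 ± 0.28, adjusted p = 1.11e-04). Gata3, known from T helper 2 cells and present in activated CD8+ cells, was at 56.1, 51.8 and 35.7 CPM in the Raptor KO libraries and 20.1, 20.3 and 8.77 CPM in the WT libraries (1.57 ± 0.36, adjusted p = 0.00648). The groups were separate in these 3. The others were Eomes and Runx1 (0.99 ± 0.29, adjusted p = 0.0142), which lost its call without Raptor KO library 2 or 3 or WT library 1 or 2 (up to 0.0848). Tbx21, encoding T-bet, was at 46.0, 53.3 and 38.4 CPM in the Raptor KO libraries and 33.5, 26.2 and 54.9 CPM in the WT libraries (0.22 ± 0.22, adjusted p = 0.565). The list's median was 0.22, and -0.31 when totals included Rn45s, and its count was 3 without Raptor KO library 2 or WT library 1.

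Of 24 genes of naive or quiescent cells 7 rose and 2 fell, with a median of 0.24 that became -0.28 when totals included Rn45s. Klf6 was at 251, 251 and 248 CPM in the Raptor KO libraries and 129, 115 and 102 CPM in the WT libraries (1.12 ± 0.13, adjusted p = 2.72e-08), with the Raptor KO libraries nearly equal. Slfn2, a schlafen needed for T cell quiescence, was at 70.3, 88.3 and 105 CPM in the Raptor KO libraries and 31.5, 31.6 and 47.5 CPM in the WT libraries (1.25 ± 0.18, adjusted p = 2.79e-06). Btg1, which slows division, was at 234, 215 and 208 CPM in the Raptor KO libraries and 137, 132 and 118 CPM in the WT libraries (0.76 ± 0.14, adjusted p = 1.28e-04). Zbtb20, a zinc finger repressor, was at 11.7, 12.5 and 17.6 CPM in the Raptor KO libraries and 5.52, 4.28 and 1.70 CPM in the WT libraries (1.99 ± 0.32, adjusted p = 5.48e-06). In all 4 the groups were separate. Bach2, named after its values were seen, changed by 0.82 ± 0.18. Tcf7, which encodes TCF1 and marks naive cells, went the other way, at 70.3, 60.6 and 82.3 CPM in the Raptor KO libraries and 84.0, 90.5 and 110.3 CPM in the WT libraries (-0.42 ± 0.14, adjusted p = 0.0366). It lost its call without Raptor KO library 1 or 2 or WT library 3 (adjusted p up to 0.259). Foxo3 fell as well (-0.80 ± 0.17, adjusted p = 6.96e-04).

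Of 18 integrins and homing receptors 3 rose and none fell. Cd69, an early activation receptor that retains cells in tissue, was at 202, 186 and 235 CPM in the Raptor KO libraries and 110.4, 94.2 and 82.0 CPM in the WT libraries (1.12 ± 0.20, adjusted p = 3.85e-04). Gpr183, an oxysterol receptor, was at 25.1, 25.1 and 21.2 CPM in the Raptor KO libraries and 11.4, 6.42 and 9.33 CPM in the WT libraries (1.34 ± 0.24, adjusted p = 7.64e-05). Neither overlapped. Gpr18 had 0.68 ± 0.18 and lost its call without Raptor KO library 2 or WT library 1 (adjusted p up to 0.0649).

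Among 12 inhibitory receptors and ligands, Ctla4, which competes with CD28 for its ligands, fell, with 28.5, 35.5 and 17.3 CPM in the Raptor KO libraries and 93.0, 128 and 89.7 CPM in the WT libraries (-1.95 ± 0.29, adjusted p = 6.29e-05). Cd274, the ligand PD-L1, rose, with 74.5, 79.5 and 67.4 CPM in the Raptor KO libraries and 34.7, 33.7 and 27.7 CPM in the WT libraries (1.21 ± 0.18, adjusted p = 8.05e-06). Both were separate between groups. The other rise was Vsir (0.83 ± 0.25, adjusted p = 0.0264), lost without Raptor KO library 3 or WT library 1 or 3 (up to 0.503). Of 27 genes of the IL-2 receptor family, STATs and SOCS, 2 rose (7.41%, near the 6.3% of all tested genes) and none fell. Stat5a, which carries the IL-2 signal, was at 269.5, 315 and 230.1 CPM in the Raptor KO libraries and 133, 135 and 160.1 CPM in the WT libraries (0.92 ± 0.15, adjusted p = 1.60e-05). Socs1, a feedback inhibitor of cytokine signals, was at 129, 118 and 92.5 CPM in the Raptor KO libraries and 63.1, 65.3 and 50.6 CPM in the WT libraries (0.92 ± 0.28, adjusted p = 0.0378). Both were separate between groups. Socs1 lost its call without any library except Raptor KO library 3 (up to 0.156). Il2ra, the high-affinity receptor chain CD25, was at 613, 609 and 463 CPM in the Raptor KO libraries and 521, 558 and 443 CPM in the WT libraries, with overlap (0.15 ± 0.28, adjusted p = 0.787).

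In T cell receptor signalling 6 of 31 genes rose and 1 fell, and 3 rose without Raptor KO library 3. Dusp6, a phosphatase of ERK, was at 31.8, 32.9 and 41.6 CPM in the Raptor KO libraries and 11.4, 19.3 and 14.4 CPM in the WT libraries (1.28 ± 0.27, adjusted p = 0.00111). Themis, an adaptor of receptor signalling, was at 46.0, 43.4 and 41.6 CPM in the Raptor KO libraries and 119, 96.9 and 89.4 CPM in the WT libraries (-1.23 ± 0.18, adjusted p = 5.48e-06). Igf1r, the insulin-like growth factor receptor, fell, with 7.53, 14.6 and 11.0 CPM in the Raptor KO libraries and 24.0, 26.8 and 33.9 CPM in the WT libraries (-1.32 ± 0.22, adjusted p = 1.60e-05). Of 25 interferon-stimulated genes 2 rose (8%) and 1 fell (4%), near the 6.3% and 5.42% of all tested genes. Without WT library 3 it was 6 and 0 of 26. Irf1 was at 129.7, 128 and 119.6 CPM in the Raptor KO libraries and 40.6, 48.2 and 66.2 CPM in the WT libraries (1.27 ± 0.17, adjusted p = 1.01e-06). Zbp1, a sensor of nucleic acids, was at 21.8, 22.0 and 16.1 CPM in the Raptor KO libraries and 3.15, 6.96 and 4.53 CPM in the WT libraries (2.04 ± 0.37, adjusted p = 7.22e-05). Neither overlapped, while Stat2, of the interferon signal complex, was at 16.7, 9.41 and 11.0 CPM in the Raptor KO libraries and 15.4, 28.4 and 21.2 CPM in the WT libraries (-0.84 ± 0.26, adjusted p = 0.0259) and lost its call without Raptor KO library 2 or 3 or WT library 2 or 3 (up to 0.135).

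**Figure D3:**
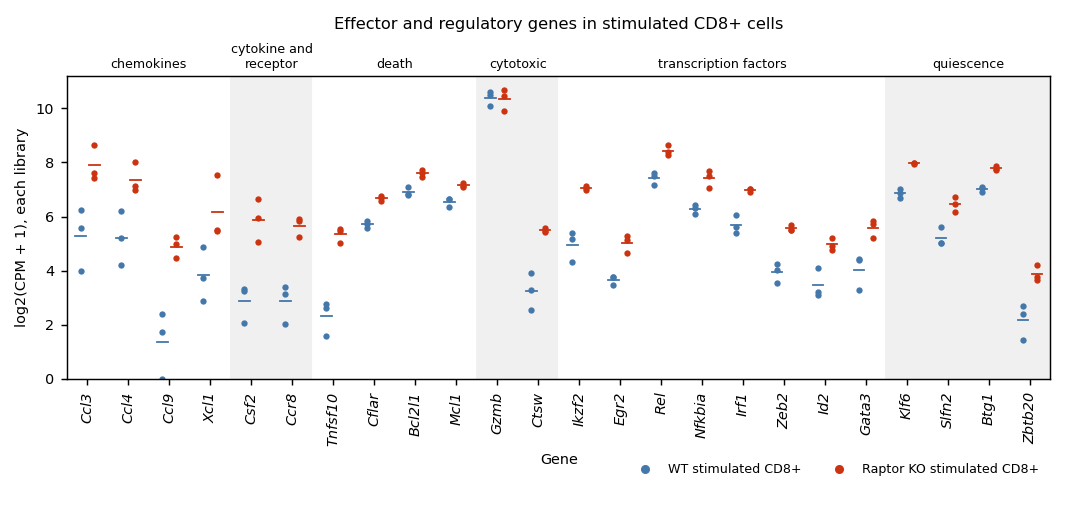
Level of 24 genes of effector function and regulation in each of the 6 libraries, as log2(CPM + 1); blue points are the 3 WT and red points the 3 Raptor KO stimulated CD8+ libraries, and short lines are group means. Except for Gzmb, the red points lie above the blue points for each gene drawn.

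The other large rises belonged to no list. Lad1, an anchoring filament protein known from epithelia, was at 115, 55.9 and 46.3 CPM in the Raptor KO libraries and 1.18, 2.14 and 3.39 CPM in the WT libraries (4.85 ± 1.01, adjusted p = 7.86e-04), highest in Raptor KO library 1. Rasgef1b, an exchange factor for RAP proteins, was at 28.5, 18.8 and 61.2 CPM in the Raptor KO libraries and 6.70, 5.89 and 2.83 CPM in the WT libraries (2.89 ± 0.39, adjusted p = 4.04e-07). Ms4a4c, a membrane protein of the MS4A family, was at 26.8, 36.1 and 54.9 CPM in the Raptor KO libraries and 5.12, 4.28 and 7.64 CPM in the WT libraries (2.75 ± 0.39, adjusted p = 3.13e-06). Penk, the precursor of enkephalin peptides, was at 10.0, 26.7 and 14.5 CPM in the Raptor KO libraries and 3.15, 4.82 and 3.96 CPM in the WT libraries (2.13 ± 0.47, adjusted p = 0.00145). In all 4 every Raptor KO library exceeded every WT library, which was a condition for naming the largest rises.

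Long noncoding RNA genes leaned to one side. Of 635 long noncoding RNA genes tested, 97 rose (15.3%) and 1 fell (0.157%), with a median of 0.80, while of 9451 protein-coding genes 543 rose (5.75%) and 564 fell (5.97%), with a median of -0.01. The other classes had positive medians too, but their shares that rose were near or below the 6.3% of all tested genes. Of 117 small nucleolar RNA genes 5 rose (4.27%) and 0 fell (median 1.25). Of 128 pseudogenes 9 rose (7.03%) and 2 fell (median 0.81). Of 162 genes of all remaining classes 7 rose (4.32%) and 2 fell (median 0.65). Without a filter on low counts the long noncoding median was 0.05 over 5516 genes, of which 98 rose and 3 fell. Without Raptor KO library 1 the long noncoding count was 87 higher and 0 lower, and without Raptor KO library 3 and WT library 3 it was 58 and 1 and 48 and 0. When totals included Rn45s, 10 rose and 1 fell, with a median of 0.28. Malat1, Kcnq1ot1 and Neat1, nuclear RNAs named after their values were seen, were examples. Malat1 was at 852, 702 and 1222 CPM in the Raptor KO libraries and 328, 287 and 288 CPM in the WT libraries (1.62 ± 0.21, adjusted p = 4.04e-07). Kcnq1ot1 was at 146, 119 and 167 CPM in the Raptor KO libraries and 69.0, 61.0 and 63.4 CPM in the WT libraries (1.16 ± 0.21, adjusted p = 3.20e-04). Neat1 was at 73.7, 64.3 and 59.6 CPM in the Raptor KO libraries and 37.8, 36.4 and 28.0 CPM in the WT libraries (0.95 ± 0.19, adjusted p = 0.00103). The groups were separate in each. The share of protein-coding counts, given above, was lower in the Raptor KO libraries than in the WT libraries, and its part in these values was not tested. Long noncoding genes took 5.63%, 7.29% and 5.12% of the counts without Rn45s in WT libraries 1 to 3 and 6.99%, 5.09% and 4.70% in Raptor KO libraries 1 to 3, which overlap. These shares are before TMM scaling, while the log2 differences are after it. The part of the TMM factors, given above and higher in each WT library, in the long noncoding median was not tested.

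The other lists gave few calls, beside 6.3% of all tested genes that rose and 5.42% that fell. Of 76 mitochondrial ribosomal proteins 5 fell (6.58%), and 1 to 3 without Raptor KO library 2 or 3 or WT library 1 or 3. Of 54 replication-dependent histone genes 1 rose and 2 fell, but 12 of 53 rose with only the 6 libraries in the fit, 5 of 62 without a filter on low counts and 4 of 54 with limma-voom. Of 20 genes of PI3K and Akt signalling 1 rose and Igf1r fell, and of 16 costimulatory receptors 1 rose and 2 fell. Of 16 glutathione, thioredoxin and NRF2 genes 3 fell (1 without Raptor KO library 3), of 10 polyamine genes 1 and of 8 iron genes 1. Of 17 DNA methylation and Polycomb genes 1 rose and 1 fell, and of 8 CD8 and CD4 lineage genes Gata3 rose and Zbtb7b fell.

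The effect of Raptor loss was then compared between stimulated CD8+ and stimulated CD4+ cells, each with its own WT controls, by testing the difference of the 2 log2 differences. Of 10493 genes, 35 (0.334%) passed, 18 with a more positive effect in CD8+ cells (0.172%) and 17 with a more negative one (0.162%). Tnfsf10 had the smallest adjusted p of the 18. In CD4+ cells it was at 10.8, 6.89 and 9.92 CPM in Raptor KO and 4.54, 5.79 and 5.78 CPM in WT, a narrower gap than in CD8+ cells (difference of effects 2.55 ± 0.47, adjusted p = 0.00486). Egr2 was at 41.6, 46.2 and 67.5 CPM in Raptor KO CD4+ cells and 57.7, 48.6 and 46.2 CPM in WT CD4+ cells, which overlap (difference 1.40 ± 0.30, adjusted p = 0.0167). Stat5a was at 166, 148 and 179 CPM in Raptor KO and 187, 162 and 174 CPM in WT CD4+ cells (difference 1.01 ± 0.21, adjusted p = 0.0139). Slfn2 was at 82.0, 66.9 and 113 CPM in Raptor KO and 87.6, 76.2 and 104 CPM in WT CD4+ cells (difference 1.28 ± 0.25, adjusted p = 0.00723). In CD4+ cells these 3 genes thus overlapped between genotypes, while in CD8+ cells they did not. Malt1, a scaffold of NF-kappa-B signalling, was at 188, 159 and 227 CPM in the Raptor KO libraries and 87.9, 87.8 and 75.2 CPM in the WT libraries in CD8+ cells (difference 1.20 ± 0.22, adjusted p = 0.00723). Rgs1, a regulator of chemokine receptor signals, was at 172, 198 and 180.3 CPM in the Raptor KO libraries and 100.1, 88.3 and 82.3 CPM in the WT libraries (difference 1.21 ± 0.24, adjusted p = 0.00842). Both were named after their values were seen, and both were separate between genotypes in CD8+ cells. Tnfsf10, Slfn2, Malt1 and Rgs1 passed without any 1 of the 12 libraries, but Slfn2 and Malt1 lost their calls when only these 12 were fitted (adjusted p = 0.13 and 0.104). Egr2 lost its call without 6 of them (adjusted p up to 0.0786) and Stat5a without 3 (up to 0.0762). The count of 35 was 17 without Raptor KO CD8+ library 2, 22 without WT CD8+ library 1, 18 without WT CD8+ library 2, 22 without Raptor KO CD4+ library 1 and 18 without Raptor KO CD4+ library 2.

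The ranked extremes of this difference were mostly genes at low levels. Inhba, a subunit of activin, was at 11.7, 17.8 and 4.70 CPM in the Raptor KO libraries and 1.18, 2.68 and 1.13 CPM in the WT libraries in CD8+ cells and at 1.14, 1.38 and 4.72 CPM in Raptor KO and 7.78, 15.2 and 2.48 CPM in WT CD4+ cells (difference 4.44 ± 1.03, adjusted p = 0.0372). Ahr, the aryl hydrocarbon receptor, had 2.94 ± 0.63, adjusted p = 0.0176, and Mt1, a metallothionein, 2.85 ± 0.65, adjusted p = 0.0245. Chst11, a sulfotransferase, had 1.94 ± 0.43, adjusted p = 0.0167, and Rxra, a retinoid receptor, 1.50 ± 0.30, adjusted p = 0.00913. In the other direction, Zbtb7b, the CD4 lineage factor ThPOK, was at 1.67, 1.05 and 1.18 CPM in the Raptor KO libraries and 6.70, 15.5 and 3.11 CPM in the WT libraries in CD8+ cells and at 34.7, 44.1 and 44.4 CPM in Raptor KO and 39.6, 33.0 and 24.2 CPM in WT CD4+ cells (difference -2.93 ± 0.69, adjusted p = 0.00913). Within WT CD8+ libraries Zbtb7b was highest in library 2, and Cd4 was at 0.394, 1.07 and 0.848 CPM there in libraries 1 to 3. Epsti1, an interferon-inducible gene, was at 4.19, 6.27 and 5.49 CPM in the Raptor KO libraries and 15.4, 16.1 and 14.1 CPM in the WT libraries in CD8+ cells and at 5.70, 9.65 and 7.56 CPM in Raptor KO and 1.95, 2.67 and 3.58 CPM in WT CD4+ cells, so that it was lower with Raptor loss in CD8+ and higher in CD4+ libraries (difference -2.79 ± 0.56, adjusted p = 0.00723). Pglyrp2, a peptidoglycan-cleaving protein, had -3.00 ± 0.57, adjusted p = 0.00486, and Ifi27, another interferon-inducible gene, -2.39 ± 0.60, adjusted p = 0.0415. St6gal1, a sialyltransferase, had -2.35 ± 0.48, adjusted p = 0.0268, and F2r, the thrombin receptor, -2.08 ± 0.44, adjusted p = 0.0167. Fnip1 was higher in the Raptor KO libraries of both subsets, with 133, 116 and 128 CPM in Raptor KO and 27.2, 27.2 and 33.0 CPM in WT CD4+ cells (difference -1.20 ± 0.28, adjusted p = 0.0482). Calls here often rested on single libraries. Of the 12, leaving out 1 ended the call of Fnip1 in 11 cases, of Inhba and Ifi27 in 9, of St6gal1 in 8, of Mt1 and F2r in 7, of Ahr in 5, of Chst11 in 4, of Zbtb7b in 3 and of Rxra in 1, with adjusted p-values of up to 0.201. Epsti1 and Pglyrp2 passed in all 12, and Epsti1 lost its call with limma-voom (adjusted p = 0.13). With only these 12 fitted, Ahr, Inhba, Zbtb7b, Fnip1, Ifi27 and Chst11 lost their calls (adjusted p = 0.26, 0.194, 0.181, 0.162, 0.16 and 0.0574). With limma-voom these genes and Mt1, St6gal1 and F2r lost them too (adjusted p up to 0.193). When totals included Rn45s, Inhba alone among the 18 genes of these differences still passed.

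**Figure D4:**
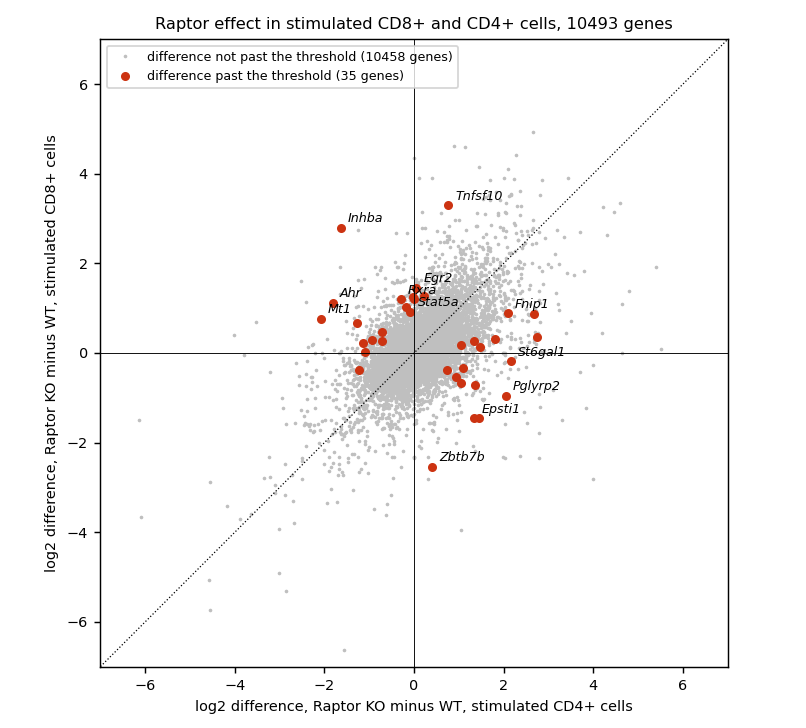
Log2 difference, Raptor KO minus WT, in stimulated CD8+ cells (vertical axis) against stimulated CD4+ cells (horizontal axis) for each tested gene; red points are the 35 genes whose difference of effects passed the threshold, the dotted line marks equal effects, and 3 genes lie outside the axes. Tnfsf10 and Inhba lie far above that line and Zbtb7b, Epsti1 and Pglyrp2 below it.

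The same test between stimulated and resting CD8+ cells passed for 303 genes (2.89%), 178 with a more positive effect in stimulated cells (1.7%) and 125 with a more negative one (1.19%). The lowest 6 of the named set were Gpt2, Slc7a3, Bhlhe40, Trib3, Eif4ebp1 and Arhgap19. Slc7a3 was at 0, 0.821 and 0.61 CPM in resting WT and 0.61, 1.35 and 0 CPM in resting Raptor KO cells, near 0 in both (difference -6.27 ± 1.37, adjusted p = 0.00649). Gpt2 had -6.70 ± 1.84, adjusted p = 0.0169, and Trib3 -3.92 ± 0.83, adjusted p = 0.0029. Eif4ebp1 was at 1.42, 4.11 and 1.83 CPM in resting WT and 5.49, 3.38 and 6.24 CPM in resting Raptor KO cells (difference -3.77 ± 0.66, adjusted p = 1.91e-04). Bhlhe40, a stress-induced repressor, differed at rest, with 0.709, 0.821 and 1.83 CPM in WT and 38.4, 16.2 and 26.7 CPM in Raptor KO, and overlapped after stimulation, with 208, 237 and 138 CPM in WT and 248, 258 and 178 CPM in Raptor KO (difference -4.24 ± 1.04, adjusted p = 0.00436). Arhgap19, which acts on RHOA in dividing cells, had -3.67 ± 1.40, adjusted p = 0.0321. Leaving out 1 resting Raptor KO library ended the calls of Slc7a3 (library 2), Gpt2 (libraries 1 and 3) and Trib3 (library 1), and Arhgap19 lost its call without each of the 3 resting Raptor KO libraries or resting WT library 1 or 2. Arhgap19 also lost its call with DESeq2, without a filter on low counts and when totals included Rn45s. Bhlhe40 lost its call with limma-voom.

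Tnfsf10 was among the highest of that difference too (3.20 ± 0.42, adjusted p = 2.90e-06). In resting cells it was at 14.9, 17.2 and 22.6 CPM in WT and 23.8, 14.2 and 21.4 CPM in Raptor KO, which overlap. Stimulated WT cells were below resting WT cells, and stimulated Raptor KO cells above resting Raptor KO cells. Cxcr6, a chemokine receptor, had 3.54 ± 0.84, adjusted p = 0.0169, Dstyk, a kinase, 3.02 ± 0.67, adjusted p = 0.00312, and Prss12, a protease, 3.22 ± 0.62, adjusted p = 9.67e-04. Cxcr6 lost its call without Raptor KO library 1 or WT library 1 or 3 of the stimulated cells, and Dstyk when totals included Rn45s.

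Rictor KO stimulated CD8+ cells, which share the WT controls of this comparison, were not tested here and are given as levels. Asns was at 118, 152 and 129 CPM there, Trib3 at 13.3, 21.2 and 14.4 CPM and Scd1 at 86.0, 105 and 69.3 CPM. Tnfsf10 was at 5.39, 7.96 and 10.1 CPM, Ccl3 at 60.6, 49.1 and 37.1 CPM and Stat5a at 98.3, 102 and 84.3 CPM. For Asns 2 of the 3 Rictor KO libraries lay within the WT range and all 3 above the Raptor KO libraries, and for Tnfsf10, Ccl3 and Stat5a all 3 were below all Raptor KO libraries. Against WT, all 3 Rictor KO libraries were below the WT range for Stat5a, and 2 of 3 were below it for Trib3 and for Scd1, while 2 of 3 were above it for Tnfsf10. All 3 Rictor KO libraries carry the library code that only library 3 carries in the WT and Raptor KO groups. Genotype and code can thus not be told apart in these ranges.

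**Figure D5:**
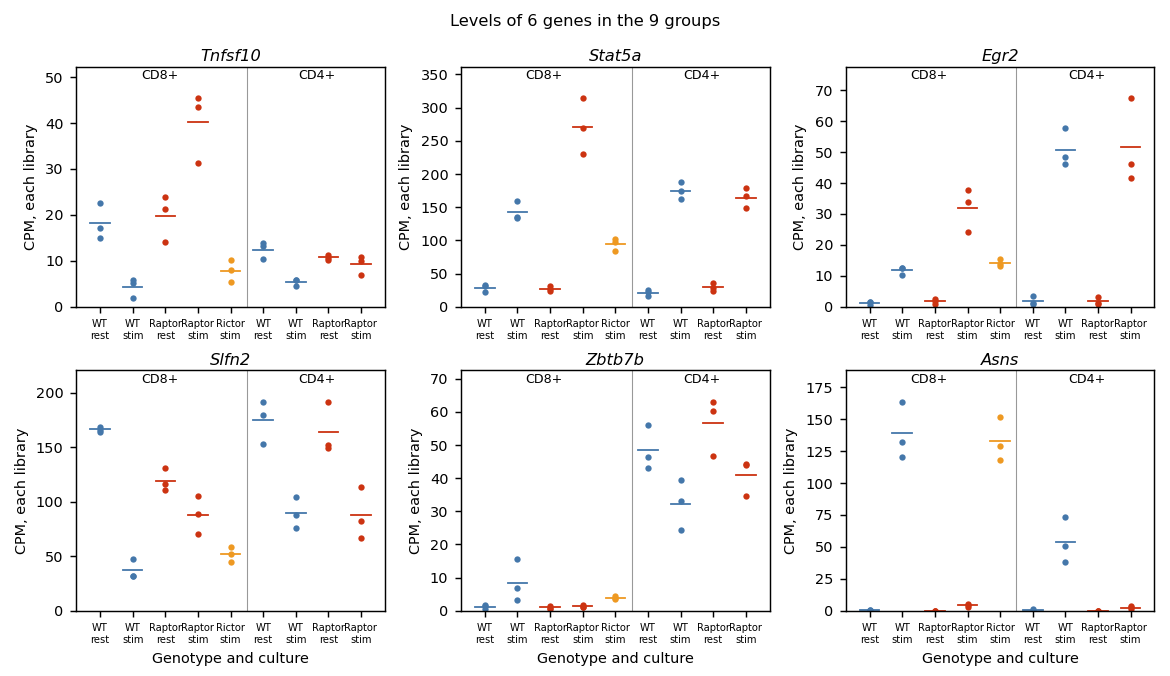
Level of 6 genes (CPM) in each library of the 9 groups, with CD8+ groups left and CD4+ groups right of the grey line; blue is WT, red Raptor KO and orange Rictor KO, rest is IL-7 culture, stim is stimulation, and short lines are means of 3 libraries. Tnfsf10 and Stat5a are highest in stimulated Raptor KO CD8+ cells, Zbtb7b is high in CD4+ groups, and Asns is high in stimulated WT and Rictor KO cells.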

How the data were processed

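RNA was sequenced from 27 mouse T cell libraries in 9 groups of 3. Per the labels' protocols, total RNA was fragmented by ultrasound and adaptors were ligated at the 3′ end, and no depletion of ribosomal RNA is named. STAR (2.6.0a) and the GRCm38 build are named per the submitters' processing notes. How reads were assigned to genes and whether strand was used is not given in the sources used here, so overlapping, antisense and near-identical genes are uncertain. The deposited values are whole-number read counts per gene (26802 genes), and no normalization by the authors was seen in them. Of these genes 26765 matched the GENCODE gene annotation by gene identifier, which gave symbols and gene classes.

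Rn45s was left out of totals and tests. Genes were kept by filterByExpr (minimum count 10, minimum total 15) and scaled by TMM, and a mean per group was fitted over all 27 libraries with the robust quasi-likelihood test of edgeR 4.0.16 (limma 3.58.1, R 4.3.3). Adjusted p-values are Benjamini-Hochberg values over all 10493 genes, with 0.05 as the threshold, and log2 differences are given ± SE. Differences between cell types or cultures were contrasts of that fit. CPM values use TMM-scaled library sizes without Rn45s. The pipeline was tested on simulated data.

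The members and the 49 gene lists were chosen with earlier results of these data known. Named genes are Rptor, Cd8a, Cd8b1 and Cd4, the 15 largest rises and falls without overlap at a mean of at least 10 CPM (no predicted genes, pseudogenes or receptor segments), the first 3 tested symbols and the 5 smallest adjusted p-values of each list, and the 6 highest and 6 lowest of each difference of effects. For the largest rises and falls the absence of overlap was thus a condition of being named and not a result. The text names those that carry a result. Some items are not reported here. A wrong symbol (Pdk1 for Pdpk1) and the histone pattern were corrected after the data were seen. Alternatives were other size factors, totals with Rn45s and no TMM factors, other filters, DESeq2 1.42.0, limma-voom and only the compared groups. Further ones were the library code as a replicate block (the replicate number in all groups but Rictor KO) and each library left out. A fit of protein-coding genes only was added after the data were seen.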

Additional observations from a re-analysis of the deposited data

Results flagged for a closer look

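The effect of Raptor loss differed between stimulated CD8+ and stimulated CD4+ cells for 35 genes and between stimulated and resting CD8+ cells for 303 genes, each by a test of the difference itself in edgeR's quasi-likelihood fit.

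Among named genes, the effect was more positive in CD8+ than in CD4+ cells, in log2 units, by 2.55 for Tnfsf10, 4.44 for Inhba, 2.94 for Ahr, 2.85 for Mt1, 1.94 for Chst11, 1.50 for Rxra, 1.40 for Egr2, 1.01 for Stat5a, 1.28 for Slfn2, 1.20 for Malt1 and 1.21 for Rgs1. It was more negative, at -2.93 for Zbtb7b, -2.79 for Epsti1, -3.00 for Pglyrp2, -2.39 for Ifi27, -2.35 for St6gal1, -2.08 for F2r and -1.20 for Fnip1.

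The libraries without which these calls were lost were as follows, all from stimulated cells. Egr2 needed CD8+ Raptor KO 2 and 3 and WT 2 and CD4+ Raptor KO 1 and 2 and WT 1. Stat5a needed CD8+ Raptor KO 2 and WT 1 and CD4+ Raptor KO 2. Zbtb7b needed CD8+ Raptor KO 2 and 3 and WT 2, and Rxra needed CD8+ Raptor KO 3. Ahr needed CD8+ Raptor KO 1 and WT 2 and CD4+ Raptor KO 2 and 3 and WT 2. Chst11 needed CD8+ Raptor KO 2 and CD4+ Raptor KO 1 and 2 and WT 2. Mt1 needed CD8+ Raptor KO 2 and 3 and WT 1 and 2 and CD4+ Raptor KO 1 and 3 and WT 2. F2r needed CD8+ Raptor KO 1, 2 and 3 and WT 3 and CD4+ Raptor KO 1 and 2 and WT 3. St6gal1 needed CD8+ Raptor KO 1 and 2 and WT 1 and 2 and CD4+ Raptor KO 1 and 2 and WT 2 and 3. Inhba needed all of the 12 except CD8+ Raptor KO 3 and CD4+ Raptor KO 3 and WT 3, Ifi27 all except CD8+ WT 3 and CD4+ Raptor KO 3 and WT 2, and Fnip1 all except CD8+ WT 3.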

How the results depend on the processing

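Scaling changed most. With Rn45s in the library totals and no TMM factors, 459 genes passed in stimulated CD8+ cells (55 higher, 404 lower) instead of 1230. For the difference from CD4+ cells 2 passed instead of 35, and for that from resting cells 38 (5 higher, 33 lower) instead of 303. That setting changed Rn45s and TMM together, so these counts cannot be assigned to either. Without a filter on low counts 495 passed as higher and 674 as lower, and with median-ratio size factors 567 and 701, against 661 and 569. The settings other than these and the block gave 1047 to 1395 calls, and 235 to 306 for the difference from resting cells. The difference from CD4+ cells gave 75 calls without a filter, 20 with limma-voom, 18 with only the compared groups and 53 with protein-coding genes only. Leaving out each library gave 753 to 1100 calls, 17 to 45 for the difference from CD4+ cells and 216 to 288 for that from resting cells. The cause was not tested.

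Of the 146 named genes that passed, 72 kept direction and call in every alternative run and 74 lost the call in at least 1. With only the compared groups in the fit 17 lost it (adjusted p up to 0.194), among them Tsc1 (0.0522), Ltb (0.0719), Tcf7 (0.079), Stat2 (0.055), Osm (0.0925), Ccr7 (0.0956), Vsir (0.163) and E2f2 (0.0645). The direction turned with Rn45s in the totals for Ifng (-0.10), Ccl5 (-0.25), Tbx21 (-0.34), Il2ra (-0.38), Bhlhe40 (-0.27), Ifi27 (-0.15) and Ccr7 (-0.037), of which Ccr7 had passed. Leaving out each library gave -0.21 to 0.15 for Gzmb, -0.41 to 1.32 for Ccl5 and -0.70 to 0.0084 for St6gal1.

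In every group except Rictor KO the replicate number goes with a library code, whose meaning the labels do not give, and the 3 Rictor KO libraries share the code of replicate 3. Deviations from the group means correlated by 0.07, 0.01 and 0.25 between Raptor KO and WT libraries of the same number, and only Raptor KO library 3 both exceeded 0.1 and correlated best with its own number, so a pairing of the samples was not established by the labels or by these values. With that code as a replicate block (equal to the replicate number in all groups but Rictor KO), 1546 genes passed (862 higher and 684 lower), 75 for the difference from CD4+ cells and 415 for that from resting cells. Under it Socs1 and mt-Cytb lost their calls and Cd8b1, Myc, Fasl, Ahr and Cxcr6 gained one. About 1522199 to 2263964 counts per library without Rn45s limit what can be said of genes near 1 CPM, such as Cd4 or Slc7a3 in Raptor KO cells.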
